A study of Mus musculus with 6 samples.

Results

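The 10 genes described here belong to the surfactant and lamellar body program of the alveolus, and were measured by droplet single-cell RNA sequencing of mouse alveolar organoids. They are the surfactant proteins Sftpc, Sftpa1, Sftpb and Sftpd, the lamellar body proteins Abca3, Napsa and Lamp3, the phosphate carrier Slc34a2, the phospholipid enzyme Lpcat1 and the transcription factor Etv5. They were chosen by symbol, and all 10 had a row among the 32285 gene rows of both organoid count tables and in the tables of 4 lung libraries. The question was how these genes were expressed by alveolar epithelium grown with normal or with fibrogenic Pdgfra+ fibroblasts (FBs).

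The organoids combined sorted tomato+ type 2 alveolar epithelial cells (AEC2s) from tamoxifen-induced SpcCreER donors with GFP+ FBs from PDGFRa-EGF reporter donors (strain names as labelled), and were cultured for 2 weeks. The FB donors had received PBS (normal FBs) or 2 U/kg bleomycin (fibrogenic FBs) once by oropharyngeal aspiration in a volume of 50 ul, and were harvested on day 14. The AEC2 donors of both libraries were labelled alike, and the exposure of the FB donors was the labelled difference. The lung libraries held GFP+ cells sorted from Pdgfra-GFP mice given PBS or bleomycin once, and from PDGFRa-EGFP mice dosed weekly on 3 occasions with PBS or with bleomycin (1 U/kg on the first and the second occasion, 0.5 U/kg on the third). The lungs were taken 14 days after the single or the last dose. For the single dose the labels give both 2 and 4 U/kg. Each of the 6 conditions was 1 library from 3 pooled mice, so no difference between conditions could be tested. Values are sums of unique molecular identifiers (UMIs) over the cells of a class, scaled to 1000000 UMIs of the class (CPM), and intervals are exact 95% Poisson or binomial intervals that cover counting error only. The starting AEC2s were labelled through a Cre driven by Sftpc, so Sftpc was used to choose the cells that founded the cultures.

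Surfactant is a film of phospholipid and protein that lowers surface tension in the alveolus. AEC2s make it, store it in lamellar bodies and release it by exocytosis. The small hydrophobic proteins SP-B and SP-C spread the lipid film, whereas SP-A and SP-D are collectins that bind microbes and take part in surfactant turnover. AEC2s are also the progenitors of the flat type 1 cells (AEC1s), and pass on the way through a keratin-rich intermediate called the pre-alveolar type 1 transitional cell state (PATS).

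The organoid libraries held 5441 (normal) and 8894 (fibrogenic) barcodes, with medians of 36841 and 4289.5 UMIs, and 13 barcodes occurred in both. Under 2000 UMIs were found in 15.9% and 33.5% of barcodes. Cells were clustered without the 10 genes, and clusters were named from markers that included none of them. In the normal and the fibrogenic library, 1259 and 1314 cells were AEC2-like, 204 and 171 AEC1-like, 239 and 446 PATS-like, 183 and 82 cycling epithelium, and 2567 and 4730 FBs. A further 300 and 1331 cells carried epithelial and FB markers together and were left out of the classes. The doublet caller marked 2 and 0 barcodes and so did not work, which means that doublets could remain in any class. Of the 8 clusters named AEC2-like, 4 had none of the fixed markers of any class among their 10 leading genes by fold. One of these 4, with 99 and 63 cells, was led by Mcm3, Hells, Uhrf1 and other genes of DNA replication. Its mean level of the cycling markers was 4.28 on the log2(CPM + 1) scale, against 1.33 to 2.06 in the other 7 AEC2-like clusters. It was counted as AEC2-like, so the class called cycling epithelium leaves these cells out. In AEC2-like cells 6 of 10 FB markers could be compared, and their log2 ratios of fibrogenic over normal ran from 0.17 to 1.21 with a median of 0.87. Their part in the results was not tested.

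Promoter sequences are shown for 4 of the genes, because the 10 are expressed together in AEC2s and the question arises which letters their promoters share. Promoters from RefSeq (GRCm38.p6, 250 bases before to 50 after the start site) were matched for 7 of the 10 genes, and Sftpc, Sftpd and Napsa were not matched. Shown 5′ to 3′ on the gene's strand are Sftpa1, Sftpb, Lamp3 and Slc34a2. By summed UMIs of AEC2-like cells, Sftpa1 differed most between the libraries, and Lamp3 and Slc34a2 stayed level. Capitals mark matches, on either strand, to 4 motifs: CAAGTG (bound by factors of the NKX2 type), TTGCNNAA (C/EBP type), TGTTTNC (forkhead type) and TATAAA (the TATA box).
Sftpa1, chr14:41131538-41131837, plus strand: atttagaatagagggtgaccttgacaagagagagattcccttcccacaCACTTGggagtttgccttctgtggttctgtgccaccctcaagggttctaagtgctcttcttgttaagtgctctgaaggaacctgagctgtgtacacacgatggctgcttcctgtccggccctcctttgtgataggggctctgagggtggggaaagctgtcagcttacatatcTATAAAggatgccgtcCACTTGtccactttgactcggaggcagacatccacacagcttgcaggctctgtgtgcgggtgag
Sftpb, chr6:72304360-72304659, plus strand: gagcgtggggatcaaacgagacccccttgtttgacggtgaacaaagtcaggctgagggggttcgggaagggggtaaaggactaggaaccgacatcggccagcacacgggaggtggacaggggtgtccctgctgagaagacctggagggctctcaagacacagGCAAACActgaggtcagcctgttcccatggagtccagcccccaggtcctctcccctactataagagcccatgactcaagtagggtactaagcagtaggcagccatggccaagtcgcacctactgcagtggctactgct
Lamp3, chr16:19706316-19706615, minus strand: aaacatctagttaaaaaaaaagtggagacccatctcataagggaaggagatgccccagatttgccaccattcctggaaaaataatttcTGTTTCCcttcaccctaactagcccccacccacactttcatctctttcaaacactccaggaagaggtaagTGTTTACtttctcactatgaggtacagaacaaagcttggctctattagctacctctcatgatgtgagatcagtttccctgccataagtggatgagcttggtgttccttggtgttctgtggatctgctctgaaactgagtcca
Slc34a2, chr5:53049103-53049402, plus strand: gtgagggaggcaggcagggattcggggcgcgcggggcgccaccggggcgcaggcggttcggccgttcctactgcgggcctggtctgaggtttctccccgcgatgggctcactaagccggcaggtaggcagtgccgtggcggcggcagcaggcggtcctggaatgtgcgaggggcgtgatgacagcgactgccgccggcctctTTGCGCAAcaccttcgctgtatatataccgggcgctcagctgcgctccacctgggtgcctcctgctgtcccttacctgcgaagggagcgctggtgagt
The Sftpa1 promoter held 2 matches to CAAGTG and a TATA box that began 30 bases before the start site. Sftpb held 1 forkhead match, Lamp3 held 2, and Slc34a2 held 1 C/EBP match, which reads the same on both strands. Of the promoters not shown, 1 of the 2 of Etv5 held a forkhead match, and those of Abca3 and Lpcat1 and the other of Etv5 held no match. Of the 8 promoters of the 7 genes, 3 thus held the forkhead motif and 1 held each of the other motifs, so no motif was shared by all. The RefSeq start of Slc34a2 used here lies inside the gene as GENCODE vM21 annotates it (chr5:53038081-53071664). No matches overlapped. Among all 32851 promoters of this length, 13.6% held CAAGTG, 10.8% TTGCNNAA, 20.5% TGTTTNC and 13.6% TATAAA, so each motif was common. These matches describe letters only. In the GENCODE vM21 annotation of the same build, Sftpa1 (chr14:41131782-41136452) and Sftpd (chr14:41172214-41185149) lie 35.8 kb apart on opposite strands, and Sftpc lies at chr14:70520949-70524081.

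The 10 genes together supplied 10.5% of all UMIs of AEC2-like cells in the normal library and 10.3% in the fibrogenic library. They supplied 9.25% and 8.32% in cycling epithelium, 3.98% and 3.70% in AEC1-like cells, 0.719% and 0.373% in PATS-like cells, and 0.0906% and 0.101% in FBs. The order of the classes was thus the same in both libraries, and the AEC2-like share was nearly equal between them. Most of that share was Sftpc, at 83680 (normal) and 85238 CPM (fibrogenic), so it says little about the other genes.

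**Figure D1:**
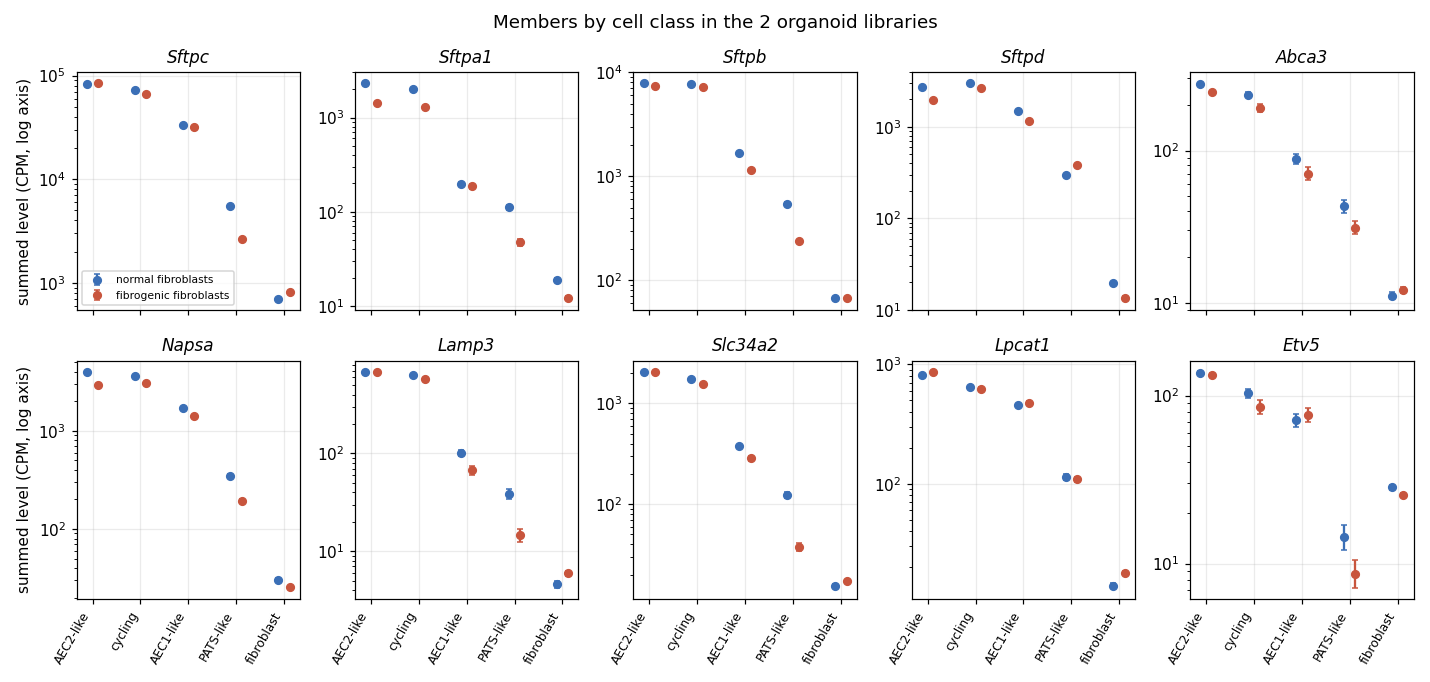
Summed level of each of the 10 genes in CPM (log axis) by cell class and organoid library, with exact 95% Poisson intervals. AEC2-like cells and cycling epithelium sat together at the top for every gene, and FBs sat lowest for every gene but Etv5.

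Sftpc, which encodes surfactant protein C, stood at 83680 CPM in AEC2-like cells with normal FBs and at 85238 CPM with fibrogenic FBs. The log2 ratio of fibrogenic over normal was 0.03 (interval 0.02 to 0.03). Thinning to 2000 UMIs a cell, here and below, left out cells of lower depth, 73 (normal) and 275 (fibrogenic) of the AEC2-like cells. The median of the remaining AEC2-like cells was 165 Sftpc UMIs in both libraries. The level of this gene was therefore the same to within a few percent, whether taken as a sum or per cell.

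Sftpa1, the gene of the collectin SP-A, was the member that differed most in these cells by summed UMIs. For the mean over cells, Sftpd differed more (log2 ratio -0.66, against -0.58 for Sftpa1). That mean gives equal weight to a low-depth cluster of 304 fibrogenic and 16 normal cells (median 2018 UMIs). Its fibrogenic cells held Sftpd at 983 CPM and Sftpa1 at 1133 CPM, and its part was not tested. As summed UMIs of the class, Sftpa1 stood at 2325 CPM (normal) and 1424 CPM (fibrogenic), a log2 ratio of -0.71 (interval -0.72 to -0.69). Of the 1186 and 1039 cells thinned to 2000 UMIs, 75.2% against 60.3% held a Sftpa1 UMI. Before thinning, 92.1% and 78.4% of all 1259 and 1314 cells did so. The difference thus appeared in the sum and in the share of cells with the transcript. Among FBs of the same libraries, thinned alike, 2.65% and 2.85% of cells held a Sftpa1 UMI.

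Sftpd, the other collectin gene, gave 2707 and 1994 CPM, a log2 ratio of -0.44 (interval -0.45 to -0.43). Of thinned AEC2-like cells, 96.0% and 88.5% held a Sftpd UMI. Sftpb, which encodes surfactant protein B, gave 7906 and 7450 CPM, a log2 ratio of -0.09. Both collectins were hence lower with fibrogenic FBs by more than either of the hydrophobic proteins was.

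Napsa encodes napsin A, an aspartic protease that takes part in the processing of the SP-B precursor. It gave 4012 CPM (normal) and 2963 CPM (fibrogenic) in AEC2-like cells, a log2 ratio of -0.44 (interval -0.45 to -0.43). Abca3, the transporter that loads phospholipid into lamellar bodies, gave 275 and 241 CPM, a log2 ratio of -0.19 (interval -0.23 to -0.15). Lamp3, a protein of the lamellar body membrane, gave 674 and 680 CPM, a log2 ratio of 0.01 (interval -0.01 to 0.03). Of these 3 genes, the protease differed by more than the transporter, and the membrane protein stayed level.

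Slc34a2, the sodium-dependent phosphate transporter of the AEC2 apical membrane, gave 2059 and 2061 CPM, a log2 ratio of 0.00 (interval -0.01 to 0.01). Lpcat1, which makes the saturated phosphatidylcholine of surfactant, gave 808 and 860 CPM, a log2 ratio of 0.09 (interval 0.07 to 0.11). Etv5, an ETS factor downstream of FGF signalling that maintains the AEC2 state, gave 136 and 132 CPM, a log2 ratio of -0.04 (interval -0.10 to 0.01). For Lamp3, Slc34a2 and Etv5 the interval included 0.

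A gene was counted as past the fold at an absolute log2 ratio of 1 or more, among genes of at least 10 CPM in either library. In AEC2-like cells none of the 10 genes was past the fold in either direction, and the median of their log2 ratios was -0.06. Of 7845 genes tested there, 0.344% were higher and 0.127% lower by that amount, with a median of 0.02.

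**Figure D2:**
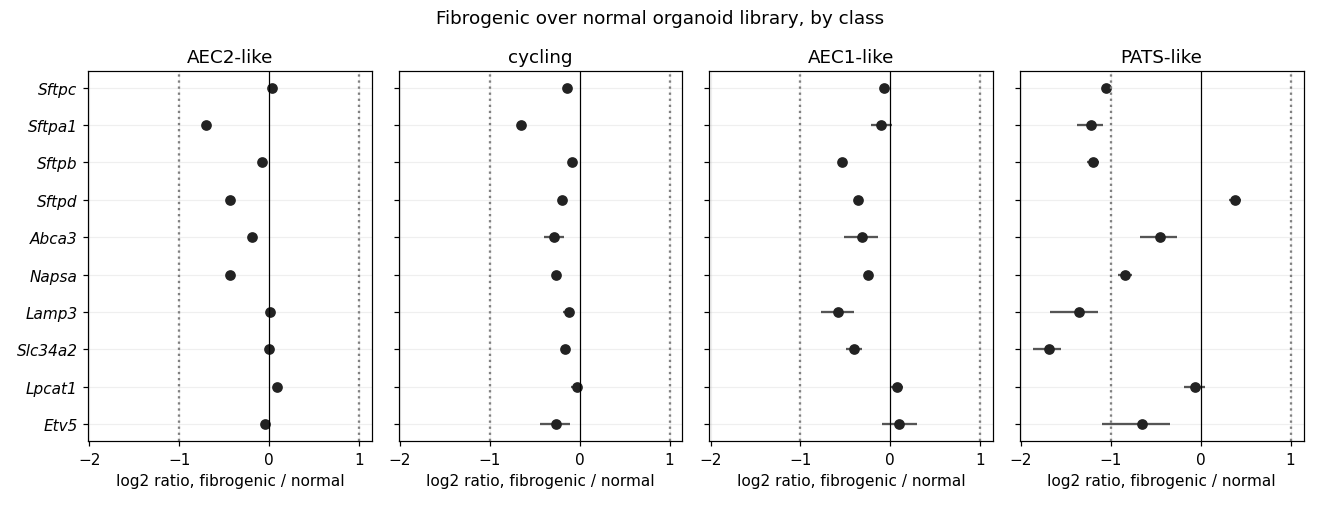
Log2 ratio of CPM, fibrogenic over normal, for each gene in each cell class, with exact 95% intervals of counting error. In AEC2-like cells all 10 genes lay between -0.71 and 0.09, whereas in PATS-like cells 5 genes lay below -1.

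The AEC2-like class was a mixture of clusters that the libraries filled unequally, so the ratios were also taken inside clusters. Of the clusters named AEC2-like, 6 held at least 50 cells in each library. Sftpa1 was lower with fibrogenic FBs in 6 of 6 of them, with log2 ratios from -1.25 to -0.12. Sftpd was lower in 6 of 6 (-0.52 to -0.13), and Napsa in 6 of 6 (-0.31 to -0.11). Abca3 was lower in 6 of 6 (-0.36 to -0.03), as was Etv5 (-0.55 to -0.11). Sftpc, Sftpb, Lamp3, Slc34a2 and Lpcat1 were higher in some of these clusters and lower in others. Etv5 differed by more inside clusters than in the class sum. The clusters share their libraries and are not replicates. No counting intervals were taken inside clusters, so ratios near 0, such as -0.03 for Abca3, were not told apart from 0. The share of all genes lower in every one of these clusters was not measured.

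**Figure D3:**
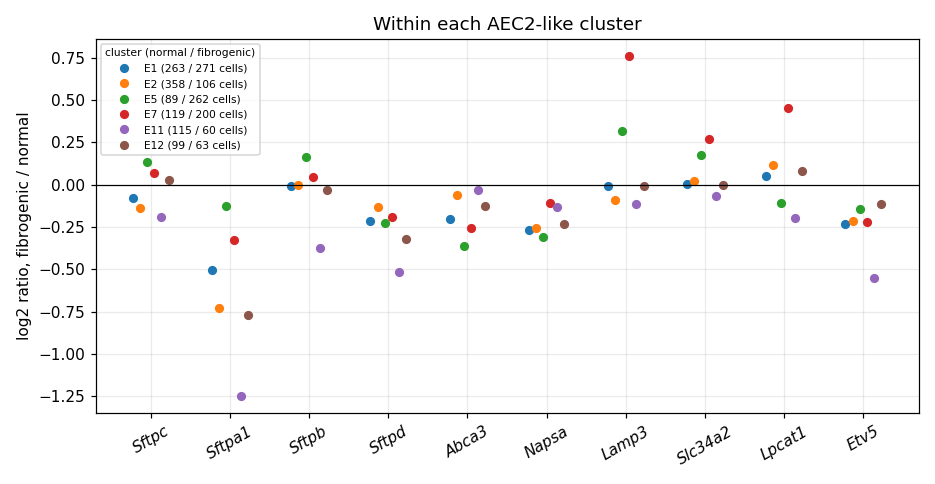
Log2 ratio of CPM, fibrogenic over normal, for each gene inside each AEC2-like cluster with at least 50 cells in both libraries. The points of Sftpa1, Sftpd, Abca3, Napsa and Etv5 all lay below 0, and those of the other 5 genes lay on both sides. The points carry no counting intervals, and some lay close to 0.

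The clusters also showed how far AEC2-like cells differed among themselves. Across the 7 AEC2-like clusters of at least 50 cells in the normal library, Sftpa1 ranged from 611 to 2724 CPM, a 4.46-fold span, and Sftpc from 59216 to 92593 CPM, a 1.56-fold span. In the fibrogenic library the spans were 8.05-fold for Sftpa1 (257 to 2067 CPM) and 1.96-fold for Sftpc. The other 8 genes spanned 1.66-fold to 2.38-fold in the normal library. Sftpa1 was thus the most variable of the 10 between AEC2-like clusters, and between libraries by the summed UMIs of AEC2-like cells. The cluster lowest in both Sftpc and Sftpa1 was led by Susd2, Fxyd4 and Egln3. The cluster highest in Sftpc, led by Crym and Cbr2, had less Sftpa1 (865 and 793 CPM) than the class as a whole. One cluster held 304 cells of the fibrogenic library and 16 of the normal, with a median of 2018 UMIs, and its leading genes included Gm42418, AY036118 and Lars2.

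Between single AEC2-like cells thinned to 10000 UMIs, the genes went together only weakly. Over the 45 pairs of genes, Spearman's rho ranged from -0.08 to 0.47 with a median of 0.13 in 1094 cells of the normal library, and from -0.07 to 0.49 with a median of 0.17 in 799 cells of the fibrogenic library. The closest pairs were Sftpb with Napsa in the normal library (0.47) and Sftpd with Napsa in the fibrogenic library (0.49). All cells of a library share its depth and free RNA, and counts are sparse for the lower genes.

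AEC1-like cells kept some of the genes far better than others. In the normal library Lpcat1 stood at 56.1% of its AEC2-like level, Sftpd at 55.8%, Etv5 at 52.4%, Napsa at 42.2% and Sftpc at 40.2%. Abca3 stood at 32.1%, Sftpb at 20.9%, Slc34a2 at 18.3%, Lamp3 at 14.97% and Sftpa1 at 8.56%. The same 3 genes, Lpcat1, Sftpd and Etv5, were the best kept in the fibrogenic library, at 55.4%, 58.9% and 58.0%. The least kept there were Lamp3 at 9.91%, Sftpa1 at 13.05% and Slc34a2 at 13.8%. The percentages of the least kept genes depended on the setting. For Sftpa1 the log2 ratio of AEC1-like over AEC2-like cells was -2.93 in the fibrogenic library, but -4.62 with each cell gated and -1.89 for the mean over cells, and in the normal library -3.54, but -4.48 with each cell gated. With coarser clusters (resolution 0.5) Lamp3 went from -2.73 to -1.81 (normal) and from -3.32 to -1.92 (fibrogenic), Slc34a2 from -2.45 to -1.71 and from -2.85 to -1.64, and Sftpb from -2.26 to -1.49 and from -2.71 to -1.71. Against AEC2-like cells, 7 of the 10 were lower past the fold in each library, where 6.73% (normal) and 7.22% (fibrogenic) of all genes tested were lower and 9.73% and 9.04% higher. This count was 5 in both libraries at resolution 0.5 and 5 in the fibrogenic library with finer clusters (resolution 2). Neighbours in this order, such as Lpcat1 and Sftpd, lay within a few points of each other and changed places between the libraries.

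**Figure D4:**
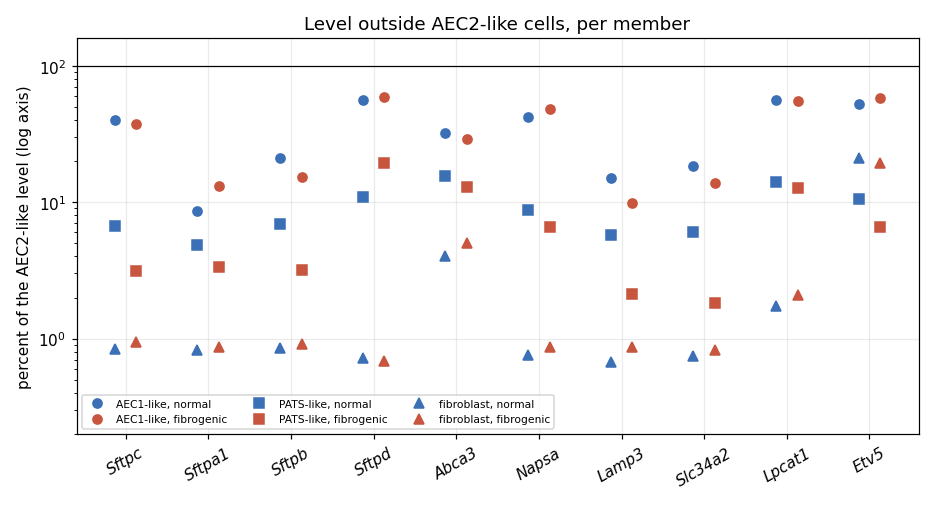
Level of each gene in AEC1-like cells, PATS-like cells and FBs as a percentage of its level in AEC2-like cells of the same library (log axis). AEC1-like cells lay between 8.56% and 58.9%, and PATS-like cells between 1.83% and 19.3%.

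Within the AEC1-like class the cells were far from uniform. Thinned to 2000 UMIs, the median cell held 31 Sftpc UMIs (normal) and 36 (fibrogenic), and 56.8% and 59.8% of cells held at least 20. A Sftpa1 UMI was found in 12.6% and 11.8% of thinned cells, against 80.9% and 82.2% for Sftpd. Between the libraries none of the 10 genes was past the fold in AEC1-like cells, where 0.0976% of genes were higher and 0.39% lower, and their median log2 ratio was -0.28. The furthest from 0 were Lamp3, at 101 and 67.3 CPM (log2 ratio -0.58), and Sftpb, at 1655 and 1137 CPM (log2 ratio -0.54). With finer clusters (resolution 2) the median became 0.018, so its direction was not stable. With each cell weighted equally (mean over cells), Sftpa1 was higher past the fold in AEC1-like cells (log2 ratio 1.60), Lamp3 turned to 0.48, and 4 of the 10 genes were below 0.

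Cycling epithelium stood near AEC2-like cells for most of the 10 genes. Its levels were 75.9% to 111% of the AEC2-like level in the normal library and 64.8% to 132% in the fibrogenic library, with Etv5 lowest and Sftpd highest in both. None of the 10 was past the fold, against 5.65% of genes higher and 0.74% lower in the normal library and 6.98% and 1.61% in the fibrogenic library. Sftpc gave 72722 CPM in the normal library and 65946 CPM in the fibrogenic library. Sftpa1 gave 2028 and 1285 CPM, a log2 ratio of -0.66, which was close to its ratio in AEC2-like cells. All 10 log2 ratios of fibrogenic over normal were below 0, with a median of -0.18, but none was past the fold (0.207% of genes higher, 0.17% lower). The interval of Lpcat1 (-0.10 to 0.03) included 0. At resolution 0.5, with the 10 genes kept in the clustering, with no filter and with at least 2000 UMIs, 9 were below 0. The share of all genes below 0 is not given here, so this direction is not set against it.

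PATS-like cells held little of any of the 10 genes. Their levels were 4.83% to 15.7% of the AEC2-like level in the normal library and 1.83% to 19.3% in the fibrogenic library. All 10 were lower past the fold in both, where 9.47% and 9.45% of genes were lower and 17.7% and 15.4% higher. Sftpc gave 5556 CPM with normal FBs and 2667 CPM with fibrogenic FBs, and Slc34a2 gave 123 and 37.7 CPM.

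Between the libraries, 5 of the 10 genes were lower past the fold in PATS-like cells with fibrogenic FBs, where 0.614% of 8472 genes were lower and 0.366% higher. The log2 ratios of these 5 were -1.06 for Sftpc, -1.22 for Sftpa1, -1.20 for Sftpb, -1.35 for Lamp3 and -1.68 for Slc34a2. Napsa (-0.84), Etv5 (-0.66) and Abca3 (-0.46) lay below 0 short of the fold, and the interval of Lpcat1 (-0.07) included 0. Sftpd differed in the other direction, at 296 CPM (normal) and 385 CPM (fibrogenic), a log2 ratio of 0.38 (interval 0.31 to 0.45). Among markers, 9 of the AEC1 list could be compared in these cells, and all had a ratio above 0 (0.31 to 1.24, 4 past the fold). The 11 comparable AEC2 markers had a median of -0.24 and ran from -1.97 to 1.18, with 2 lower and 1 higher past the fold. The 3 of these above 0 were Cbr2 (4.74 and 11.96 CPM, the one higher past the fold), Cd74 (844 and 944 CPM) and Muc1 (159 and 199 CPM). Cxcl15 (738 and 188 CPM) and Chil1 (175 and 66.8 CPM) were the 2 lower past the fold, and Lyz2 gave 260 and 140 CPM. The part of these shifts in the members' ratios was not tested.

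The Sftpc sum of PATS-like cells rested on few cells, and the other 9 genes were not measured in this way. Thinned to 2000 UMIs, the median PATS-like cell held 1 Sftpc UMI in both libraries, and so did the median FB. At least 20 Sftpc UMIs were found in 13 of 209 thinned cells (6.22%) of the normal library and in 14 of 343 (4.08%) of the fibrogenic library. The top 10% of cells held 94.4% and 87.7% of all Sftpc UMIs of the class. Taken as the median over cells of at least 2000 UMIs, Sftpc stood at 349 CPM (normal) and 324 CPM (fibrogenic) in PATS-like cells, a log2 ratio of -0.11, and at 307 and 286 CPM in FBs. For Sftpc the median PATS-like cell was thus near the median FB in both libraries. With only barcodes of at least 2000 UMIs, with no filter on barcodes, or with each cell gated on its own markers, 1 of the 10 genes was past the fold instead of 5. That gene was Slc34a2.

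Sftpd had a log2 ratio above 0 in PATS-like cells, from 0.11 to 0.60 under the other settings. Lpcat1 (-0.07) reached 0.13 with no filter on barcodes, and Abca3 (-0.46) reached 0.099 for the mean over cells. For each 100 Sftpc UMIs there were 14.4 Sftpd UMIs in PATS-like cells with fibrogenic FBs, 5.33 with normal FBs, and 2.34 and 3.23 in the AEC2-like cells of the same libraries. Of PATS-like cells thinned to 2000 UMIs, 29.7% (fibrogenic) and 23.4% (normal) held a Sftpd UMI, against 2.85% and 3.39% of FBs. For Sftpa1 the shares were 2.92% and 6.70%, against 2.85% and 2.65% of FBs, so in the fibrogenic library the share was close to that of FBs. The summed level was not, at 47.8 CPM in PATS-like cells and 12.3 CPM in FBs of that library (112 and 19.1 CPM in the normal library). Before thinning, 53.8% and 63.2% of PATS-like cells held a Sftpd UMI, with a median depth of 21690.5 and 37442 UMIs. The thinned shares leave out 103 (fibrogenic) and 30 (normal) cells under 2000 UMIs, which the unthinned shares keep. The order of the libraries in this share turned with the thinning and this loss together, and their parts were not tested. Other genes also stood above their AEC2-like proportion. Abca3 gave 0.776 (normal) and 1.17 (fibrogenic) UMIs per 100 Sftpc UMIs in PATS-like cells against 0.329 and 0.283 in AEC2-like cells, and Lpcat1 gave 2.06 and 4.08 against 0.966 and 1.01. A Napsa UMI was found in 26.3% and 22.2% of thinned PATS-like cells, against 4.50% and 5.76% of FBs.

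FBs are not known to secrete surfactant, and their UMIs of these genes were taken as a measure of free RNA or of epithelial material in the same droplets. All 10 genes were lower past the fold in FBs than in AEC2-like cells, where 15.8% (normal) and 16.6% (fibrogenic) of genes were lower and 19.7% and 19.4% higher. Sftpc gave 697 and 809 CPM in FBs, and 51.8% and 55.9% of FBs thinned to 2000 UMIs held at least 1 Sftpc UMI. Unthinned, 98.5% and 97.1% of all 2567 and 4730 FBs did, whereas thinning left out 413 and 1675 of them. For Sftpc, Sftpa1, Sftpb, Sftpd, Napsa, Lamp3 and Slc34a2 the FB level was 0.677% to 0.950% of the AEC2-like level. It was 1.74% and 2.08% for Lpcat1, 4.04% and 4.996% for Abca3, and 20.9% and 19.3% for Etv5. These 3 genes thus stood higher in FBs, relative to AEC2-like cells, than the other 7 did, and the source of the UMIs was not tested. The FB levels depended on how FBs were chosen. With each cell gated on its own markers, Sftpc in FBs became 4423 CPM (normal) and 2187 CPM (fibrogenic), which also turned the order of the libraries. Gated in this way, Lpcat1 in FBs of the normal library stood at 5.92% of the level in clustered AEC2-like cells, between Sftpd (5.82%) and Sftpb (6.10%), so that it no longer stood above the other 7. Abca3 (9.13% and 6.82%) and Etv5 (24.4% and 21.1%) still did in both libraries, and Lpcat1 did in the fibrogenic library (4.01%). Between the libraries, none of the 9 genes that could be compared in FBs was past the fold (0.353% of genes higher, 0.863% lower).

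**Figure D5:**
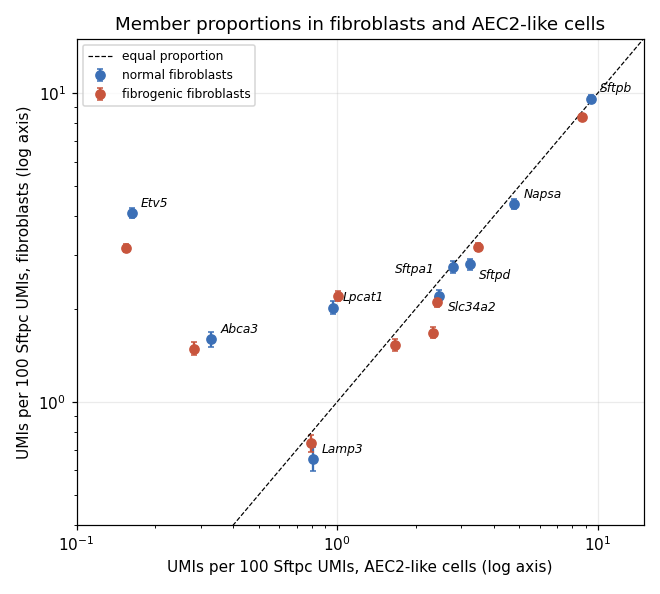
UMIs of each gene per 100 Sftpc UMIs in FBs against the same proportion in AEC2-like cells of the same library (log axes, exact 95% intervals). Sftpa1, Sftpb, Sftpd, Napsa, Lamp3 and Slc34a2 lay near the line of equal proportion, and Etv5, Abca3 and Lpcat1 lay above it.

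In FBs and AEC2-like cells the proportion of Sftpa1 to Sftpc followed the library, as did those of Sftpd and Napsa, and that of Lamp3 did not. In FBs, Sftpd gave 2.79 (normal) and 1.68 (fibrogenic) UMIs per 100 Sftpc UMIs, and Napsa 4.38 and 3.17. In AEC2-like cells, Sftpd gave 3.23 and 2.34, and Napsa 4.79 and 3.48. Sftpa1 also differed in cycling epithelium (2.79 and 1.95), but its intervals overlapped in AEC1-like (0.591 and 0.579) and PATS-like cells (2.02 and 1.79). Lamp3 gave 0.655 (normal) and 0.734 (fibrogenic) UMIs per 100 Sftpc UMIs in FBs, against 0.806 and 0.797 in AEC2-like cells. In FBs, each 100 Sftpc UMIs came with 2.73 Sftpa1 UMIs in the normal library and 1.52 in the fibrogenic library, and in AEC2-like cells with 2.78 and 1.67. The Sftpa1 sum in FBs was lower in the fibrogenic library too, by a log2 ratio of -0.59. The share of thinned FBs with a Sftpa1 UMI was not, at 2.65% (normal) and 2.85% (fibrogenic). Etv5 gave 4.09 and 3.16 UMIs per 100 Sftpc UMIs in FBs against 0.163 and 0.155 in AEC2-like cells.

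The lung libraries were sorted for GFP and should hold few epithelial cells. In their FBs, Sftpc stood at 82.2 CPM (PBS, single dose), 67.0 CPM (bleomycin, single dose), 16.9 CPM (PBS, repetitive) and 37.2 CPM (bleomycin, repetitive), and 14.0% to 52.1% of FBs held a UMI. These levels were lower than in organoid FBs in every lung library. The 4 libraries differed in size, from 1015 to 10737 barcodes and from 7201081 to 68354458 UMIs, so no order was read from them. Abca3 stood at 9.20, 8.63, 17.2 and 16.1 CPM in these FBs, Lpcat1 at 11.2, 9.64, 12.2 and 13.3 CPM, and Etv5 at 7.70, 9.95, 7.16 and 7.94 CPM. The other genes gave at most 9.87 CPM, the highest being Sftpa1.

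Of the lung barcodes, 24 of the repetitive PBS library and 10 of the repetitive bleomycin library formed an AEC2-like cluster, and gave a view of the genes outside culture. Sftpc stood at 168548 CPM there, Sftpa1 at 20212, Sftpb at 7501, Sftpd at 3476 and Napsa at 2055 CPM. Organoid AEC2-like cells with normal FBs had 8.69-fold less Sftpa1, 3.54-fold less Etv5, 3.46-fold less Abca3, 2.56-fold less Lamp3, 2.16-fold less Slc34a2, 2.01-fold less Sftpc, 1.38-fold less Lpcat1 and 1.28-fold less Sftpd. They had 1.95-fold more Napsa and nearly the same Sftpb (1.05-fold). The lung values pool the PBS and bleomycin barcodes. For each 100 Sftpc UMIs there were 11.6 Sftpa1 UMIs in the 24 PBS barcodes and 12.7 in the 10 bleomycin barcodes. In organoid AEC2-like cells with normal FBs there were 2.78. The part of bleomycin was not tested further. Culture, library and the escape of these few barcodes through a sort for GFP cannot be told apart.

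The pathway around the 10 genes was taken from 3 lists. In AEC2-like cells 0.344% of all genes were higher and 0.127% lower past the fold, so lists of this size would hold none or nearly none, and their counts of 0 say nothing particular about them. Of 24 genes of surfactant processing and trafficking, 22 were tested and none was past the fold, with a median log2 ratio of -0.03. The lowest was Ctsh, a protease that acts on surfactant precursors, at 2022 and 1612 CPM (-0.33), and the highest was Hps4, which takes part in the making of lysosome-related organelles, at 10.1 and 12.3 CPM (0.26). Of 24 genes of phospholipid supply, 19 were tested and none was past the fold (median 0.07). These ran from Fabp5, a fatty acid carrier, at 5745 and 3635 CPM (-0.66), to Chpt1, a phosphatidylcholine synthesis enzyme, at 123 and 179 CPM (0.54). Of 22 transcription and FGF regulators, 21 were tested and none was past the fold (median 0.01), from Foxp2 (-0.40) to Sox9 (0.58).

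In the other epithelial classes 4 comparisons of these list genes were past the fold. Fabp5 was lower in AEC1-like cells (474 and 223 CPM, -1.09) and in PATS-like cells (534 and 262 CPM, -1.02). PATS-like cells also had a lower Gpam, an acyltransferase of glycerolipid synthesis (-1.15, from 11.4 CPM), and a higher Hopx, an AEC1 marker (1.11, 197 and 426 CPM). These were 1 of 21 phospholipid genes tested in AEC1-like cells, and 2 of 20 phospholipid genes and 1 of 21 regulators in PATS-like cells. Over all genes, 0.39% were lower past the fold in AEC1-like cells, and 0.614% lower and 0.366% higher in PATS-like cells. In cycling epithelium none of the tested genes of the 3 lists was past the fold, where 0.207% of all genes were higher and 0.17% lower.

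Some genes that are no members followed the mean of the 10 across the 8 profiles formed by 4 epithelial classes and 2 libraries. By Pearson's r of log2 CPM the closest were Acsl5 (0.996), an acyl-CoA synthetase, Tmem243 (0.995), Slco4c1 (0.995), Cyb5b (0.992), Id2 (0.992), Gpc3 (0.991), Pmvk (0.991) and Cadps2 (0.991). The 10 genes themselves ranged from 0.956 (Etv5) to 0.993 (Slc34a2). Each of the 10 is part of that mean, which raises its r, and the other 8 were picked for the highest r. Acsl5 stood at 233 and 223 CPM in AEC2-like cells and at 52.6 and 42.4 CPM in PATS-like cells. The profiles share 2 libraries, and r describes them only.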

How the data were processed

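Droplet single-cell RNA libraries of 2 organoid and 4 lung conditions were analysed, with 1 library per condition. According to the labels' processing notes, the authors used Cell Ranger 3.0.1 with genome build mm10, and Seurat 3; they deposited UMI counts per gene and barcode, with no normalization. UMI totals per library are the depth behind each value. In each cluster, barcodes over 3 scaled median absolute deviations above the median mitochondrial or erythroid share were removed. Clusters with a mean share over 25% mitochondrial or over 0.5% erythroid UMIs were removed whole. No barcode was removed for its depth or its number of genes. Cells were log-normalized and clustered with numpy, scikit-learn 1.9.0 and igraph 0.11.9 (2000 variable genes, 30 components, 20 neighbours, Leiden clustering at resolution 1). The 10 genes, all genes of the pathway lists and mitochondrial genes were left out of the clustering. Clusters were named from fixed marker lists by thresholds set after the clusters were seen. An epithelial cluster was left unnamed if its 10 leading genes held no marker of its class and its depth was low. Low meant a median under about 33% of the median depth of the cells' own library, which was far lower in the fibrogenic library. UMIs were summed per class and library, and ratios were taken after adding 1 CPM. As each condition was 1 library, no test was run. The text names all 10 genes, the highest and the lowest gene of each pathway list in AEC2-like cells, list genes past the fold, and the 8 genes most like the 10. Gpam and Hopx were named after their values were seen. The 10 genes and the lists were chosen with earlier results of these data known. On simulated counts, 99 to 100% of 200 genes changed by a log2 of 1.5 were recovered. The simulation held counting error only, without variation between cells, clusters or libraries, so it does not bear on such variation. Alternatives changed clustering, filters, scaling, gating and the added CPM.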

Additional observations from a re-analysis of the deposited data

Results flagged for a closer look

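Napsa was found in lung cells that are no epithelium, which lies outside the organoid comparison. In lung B cells, identified by Cd79a, Cd79b and Ms4a1, Napsa stood at 413 CPM (PBS, single dose, 14 UMIs in 10 barcodes), 556 CPM (bleomycin, single dose, 38 UMIs in 18 barcodes), 515 CPM (PBS, repetitive, 91 UMIs in 45 barcodes) and 541 CPM (bleomycin, repetitive, 173 UMIs in 77 barcodes). The exact 95% intervals ran from 226 to 694, 393 to 763, 415 to 633 and 464 to 628 CPM. In FBs of the same libraries Napsa stood at 0.669, 2.23, 3.01 and 6.25 CPM, so the B cells lay above the FBs in 4 of 4 libraries. Sftpc stood at 59.1, 87.7, 39.6 and 56.3 CPM in those B cells, which was far below Napsa, whereas in AEC2-like cells of any library Sftpc was far above it.

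A myeloid cluster of the repetitive lungs led by Ifitm6, Adgre4 and Ms4a6c was singled out in the same way. Its 39 barcodes held 144 Napsa UMIs, or 582 CPM (interval 491 to 685), beside 20.2 CPM of Sftpc. The other clusters scored as myeloid held less Napsa. It stood at 288 CPM (107 UMIs in 47 barcodes) in a single-dose cluster led by S100a8 and Ccl6, and at 53.9 and 36.2 CPM in 2 others of the repetitive lungs. In a further single-dose cluster, whose leading genes Ccl21a, Mmrn1, Aspn and Lum go against a myeloid name, it stood at 61.1 CPM. An unnamed repetitive cluster led by Adgre4 and Rap1gap2 held 196 CPM (95 UMIs in 24 barcodes). What these values come from was not tested.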

How the results depend on the processing

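Each condition was 1 library, so counting error is known and variation between mice or cultures is not. No paired analysis was possible because the groups compared hold 1 library each. At this depth 9 of the 10 genes could be compared in FBs, and unmarked doublets could remain. Removing called doublets took no cell from any class and is left out of the counts here. Under the other 12 alternatives, 62 of 120 values of the main results were called unchanged and 58 moved. Unchanged meant within the counting interval. For the count of genes past the fold in PATS-like cells it meant within a set fold of the main count. Of 904 values of single genes under 13 alternatives, 536 stayed within the interval. No ratio that was past the fold changed sign, but Sftpa1 in AEC1-like cells went from -0.10 to 1.60, past the fold, for the mean over cells. In AEC2-like cells no gene passed the fold under any of the 12 alternatives, and Sftpa1 stayed between -0.73 and -0.58. Counting intervals are narrow for large sums, so small shifts count as moved. The causes of the shifts were not tested.

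The following are medians of the 10 log2 ratios unless stated. In AEC2-like cells, fibrogenic over normal, the mean over cells gave -0.23 instead of -0.06. In AEC1-like cells (-0.28) the values were 0.018 at resolution 2, -0.15 at resolution 0.5, -0.36 with the 10 genes kept in the clustering, -0.38 with at least 2000 UMIs and 0.10 for the mean over cells. In PATS-like cells (-0.95) they were -0.75 at resolution 0.5, -0.78 with the 10 genes in the clustering, -0.50 with no filter on barcodes, -0.61 with at least 2000 UMIs, -0.78 for the mean over cells, -0.62 with each cell gated and -0.90 with 10 CPM added. The count of genes lower past the fold there (5) was 3 at resolution 0.5, with the 10 genes in the clustering and for the mean over cells, 4 with 10 CPM added, and 1 with no filter, with at least 2000 UMIs and with each cell gated; this count over settings was chosen after seeing the data, as was the median over cells of Sftpc given with the PATS-like values. In cycling epithelium (-0.18) no filter gave -0.11. The count of genes lower past the fold in AEC1-like against AEC2-like cells (7 in each library) ran from 5 to 9 (normal) and from 5 to 8 (fibrogenic), also chosen after seeing the data. AEC1-like over AEC2-like cells gave -1.47 (normal) and -1.58 (fibrogenic), which became -1.33 and -1.22 at resolution 2, -1.09 and -1.03 at resolution 0.5, -1.57 and -1.69 in CPM of all other genes, -1.72 and -1.45 for the mean over cells, -1.73 and -1.76 with each cell gated, and -1.63 and -1.75 centred on the median gene. The 10 genes' share of AEC2-like UMIs (10.5% and 10.3%) became 10.4% and 10.3% at resolution 2, 10.9% and 10.7% at resolution 0.5, 10.6% (normal) with the 10 genes in the clustering, 10.6% and 10.5% with no filter, 10.3% (fibrogenic) with at least 2000 UMIs, 11.0% and 10.9% without mitochondrial genes, 10.1% and 9.35% for the mean over cells, 10.6% and 10.6% with each cell gated, and 11.7% and 11.5% relative to all other genes. The median CPM of the 10 genes in organoid FBs (19.3 normal, 17.5 fibrogenic) became 107 and 45.8 with each cell gated, and in the fibrogenic library 18.2 with no filter and 16.2 with at least 2000 UMIs. In lung FBs (7.11 and 5.53 for single PBS and bleomycin, 2.82 and 5.70 for repetitive) it became 10.8, 9.67, 7.30 and 8.29 with each cell gated, and 1.98 and 3.10 with at least 2000 UMIs in the repetitive pair.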

Other observations

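Surfactant genes were also present in lung barcodes with airway secretory genes. In the repetitive lungs, 56 barcodes led by Scgb3a2 and Scgb1a1, both secretoglobins of club cells, held Sftpc at 13779 CPM, Sftpa1 at 3651 CPM, Sftpb at 1654 CPM and Sftpd at 855 CPM, with Napsa at 194 CPM and Lamp3 at 104 CPM. In the single-dose lungs, 14 barcodes of a cluster left unnamed had both airway secretory genes (Scgb1a1, Scgb3a2, Cyp2f2) and genes of AEC2s (Sftpb, Sftpc, Sftpd, Cxcl15, Slc34a2) among their leading 10, and held Sftpc at 33216 CPM, Sftpb at 3595 CPM and Sftpd at 1412 CPM. Whether these barcodes held 1 cell or more was not tested. Lung endothelial barcodes of the single-dose pair held Lpcat1 at 45.8 CPM and Abca3 at 28.3 CPM, beside 61.0 CPM of Sftpc and no UMI of Lamp3 or Slc34a2 in 49 barcodes.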
